A study of Mus musculus with 6 samples.

Results

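RNA of 10 genes for cartilage-type and pericellular matrix proteins was followed in entheseal fibroblasts of SKG mice, 3 samples labelled diseased against 3 labelled un-diseased. The genes were taken by name, and all 10 were among the 17419 genes of the deposited table: aggrecan (Acan) and versican (Vcan), 2 large chondroitin sulfate proteoglycans that bind hyaluronan; the link proteins Hapln1, Hapln3 and Hapln4; the matrilins Matn2, Matn3 and Matn4; chondroadherin (Chad); and the small transmembrane proteoglycan Snorc. All samples came from SKG mice, a strain with a mutation of Zap70 in which autoimmune arthritis develops, so the un-diseased samples carry that mutation too. The enthesis is where tendon meets bone, and RNA of its fibroblasts was sequenced in bulk. The titles mark the diseased samples NTS and the un-diseased ones UN; the meaning of these letters, the way disease arose, and the age, sex and number of mice behind a sample are not given in the labels. The labels leave unsaid whether the samples are different mice or cultures, and the p-values therefore describe the scatter among these 6 samples, which may be technical.

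Aggrecan is the main space-filling proteoglycan of cartilage. Its N-terminal domain binds hyaluronan, a link protein locks the pair together, and the chondroitin sulfate chains of many such complexes draw in water, which gives fibrocartilage at a tendon's insertion its resistance to compression. Versican has the same kind of hyaluronan-binding domain but is found in looser, fibrous and remodelling tissue. Matrilins are adaptor proteins that join collagen fibrils, proteoglycans and cells, and chondroadherin is a leucine-rich protein that binds collagen and cell-surface integrins.

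Total counts were between 16720612 and 18290873 per sample, and the 10 genes took 0.119% to 0.151% of them in diseased samples and 0.102% to 0.107% in un-diseased samples. Levels are given as CPM, counts relative to each sample's TMM-scaled total. The shares above are of unscaled totals. The TMM factor was 1.12 in diseased replicate 1 and 0.918 in un-diseased replicate 3, and on scaled totals the shares of the groups overlapped. Most counts of the 10 genes were of Vcan, with 13854 of 21735 in diseased replicate 1. Where a gene has a count of 0, up to 3 counts remain possible from counting error alone, and these corresponded to 0.147 to 0.188 CPM. All 8 fibroblast markers were detected, and Col3a1, the most abundant of them, had 44447 ± 7117 CPM in diseased and 27054 ± 6667 CPM in un-diseased samples (SD, n = 3 each). RNA of other cells was present as well. The 18 macrophage and monocyte markers summed to between 214 and 557 CPM in diseased samples and between 46.5 and 270.4 CPM in un-diseased samples; 0 of them passed edgeR's test, against 3.73% of all tested genes. Same-numbered samples of the 2 groups deviated together, so a fit blocked on the replicate number is given where it changed a call. With that block 17 of the 18 markers rose, where 10.5% of all tested genes were called higher and 23.9% in either direction.

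None of the 8 tested genes passed edgeR's quasi-likelihood test between diseased and un-diseased samples, where 3.73% of all 13264 tested genes did (1.61% higher and 2.13% lower). The largest differences were in Hapln4 and Acan, whose mean in diseased samples was 2.27 and 2.03 times that in un-diseased samples, and neither exceeded the spread between samples by the test. Vcan and Hapln1 had smaller positive differences. Matn2, Matn4 and Chad were at nearly equal mean levels in both groups. All 8 genes had a log2 fold change (diseased minus un-diseased) above 0, as did 51.8% of all tested genes, with a median of 0.28 against 0.02 over all tested genes. That held under each of the scalings tried, but 4 of the 8, Matn2, Matn3, Matn4 and Chad, changed sign when a sample was left out. An unadjusted p under 0.05 was found for 0 of the 8 genes and for 27.8% of all tested genes, and DESeq2 called 0 of the 8, against 11.4% of all. By the authors' deposited table, none (0 of 10) of the genes had a q-value under 0.05, as 7.81% of the table's genes did. Groups did not overlap for 1 of the 8, and for 31.9% of all tested genes (16.5% higher, 15.4% lower). With the replicate block 1 of the 8 passed, Hapln4, against 23.9% of all tested genes (10.5% higher, 13.3% lower).

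**Figure D1:**
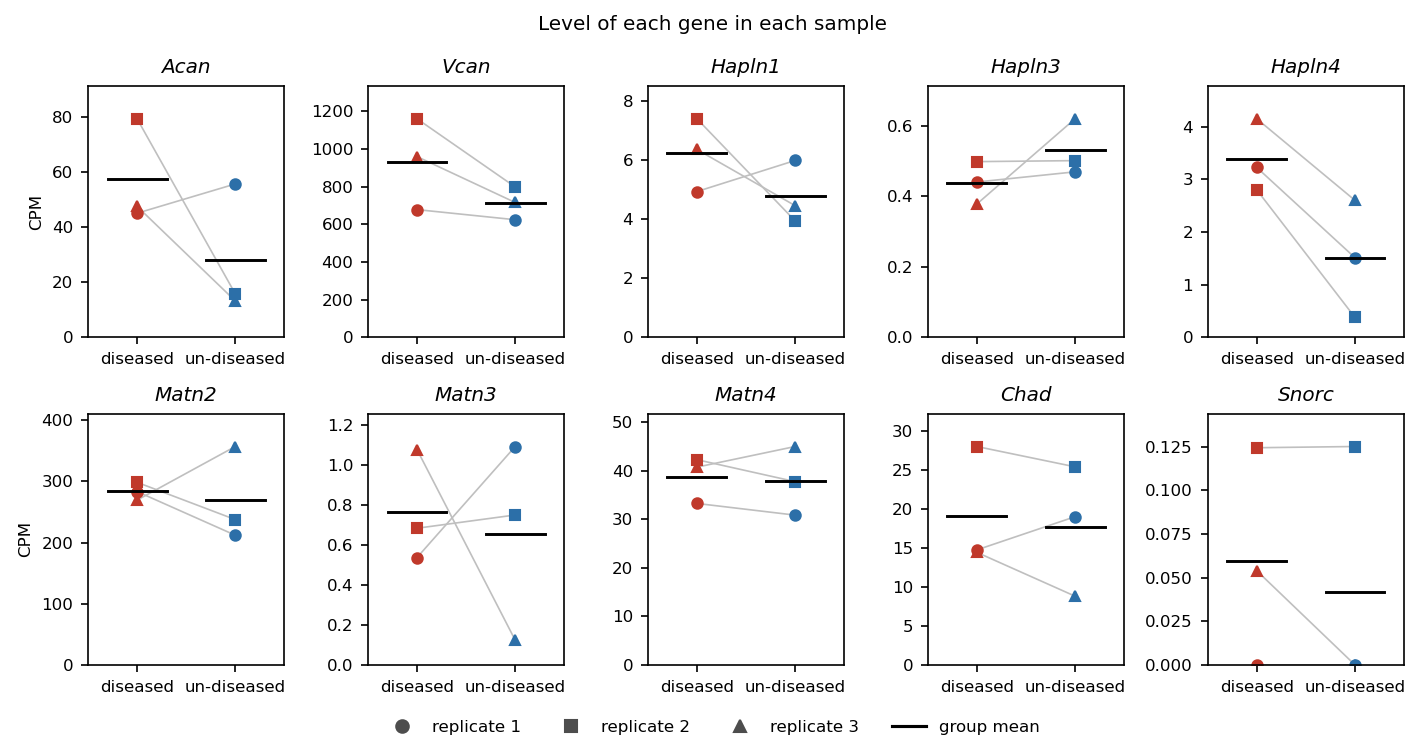
CPM (vertical axis, from 0) of each of the 10 genes in the 3 diseased samples (red, left) and the 3 un-diseased samples (blue, right); marker shapes give the replicate number, grey lines join samples of the same number and black bars are group means. In 1 panel, that of Hapln4, all diseased samples lie above all un-diseased samples (2.80 to 4.15 against 0.376 to 2.60 CPM), and for Acan un-diseased replicate 1 lies among the diseased samples.

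Acan (gene 11595, GRCm38 chromosome 7, 79053226 to 79115099, plus strand) had 45.0, 79.2 and 47.4 CPM in diseased replicates 1, 2 and 3, against 55.6, 15.7 and 13.1 CPM in un-diseased replicates 1, 2 and 3. The groups overlapped because of a single sample: un-diseased replicate 1 was above 2 of the 3 diseased samples, while the other un-diseased samples were far below all of them. The means were 57.2 ± 19.1 CPM in diseased and 28.1 ± 23.8 CPM in un-diseased samples (SD, n = 3 each), a log2 fold change of 1.02 (SE 0.54, 95% interval -0.23 to 2.26; edgeR adjusted p = 0.253). Blocked on the replicate number it was 1.26 (SE 0.44; edgeR adjusted p = 0.0699), again without passing.

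The Acan result turned on that sample. Without un-diseased replicate 1 the log2 fold change was 1.98 (SE 0.27; edgeR adjusted p = 0.0302), in a fit that called 2.63% of genes higher. With the block and without the pair numbered 1 it was 2.08 (SE 0.14, edgeR adjusted p = 0.0012), in a fit that called 7.62% of genes higher. Un-diseased replicate 1 was the highest un-diseased sample for Acan, and pair 1 its only negative pair. Leaving out either was therefore bound to raise the estimate, and these p-values are no separate support. Few samples remained in the blocked fit, so its SE rests largely on variance that edgeR shares across genes. Leaving out any other sample gave 0.68 to 1.16, and none of these passed. Within pairs, the log2 difference in CPM (with a prior count of 2) was -0.31 between the samples numbered 1, 2.32 between those numbered 2 and 1.84 between those numbered 3. In the authors' deposited table the log2 ratio of un-diseased over diseased for Acan was -1.01 with a q-value of 0.428.

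Of the cartilage collagen genes examined, only Col11a1 was highest in un-diseased replicate 1, as Acan was. Within the un-diseased group Col2a1, Col9a1, Col9a2, Col9a3, Col10a1 and Col11a2 were highest in replicate 2. Col2a1, the main collagen of cartilage, had 15.1, 149.7 and 51.6 CPM in diseased replicates 1, 2 and 3, against 23.2, 63.6 and 4.46 CPM in un-diseased replicates 1, 2 and 3. Among the un-diseased samples it was thus highest in replicate 2, where Acan was low. Col11a1, a fibrillar collagen of cartilage and tendon, had 153.4, 258.1 and 191.9 CPM in diseased samples and 139.6, 107.0 and 86.1 CPM in un-diseased samples. Within pairs 1, 2 and 3 the log2 differences were -0.62, 1.23 and 3.50 for Col2a1, with the same signs as for Acan. For Col11a1 they were 0.14, 1.27 and 1.16.

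The summed level of 10 chondrocyte markers, of which 7 of 8 tested had a positive fold change, was between 71.8 and 237.8 CPM in diseased and between 58.2 and 142.4 CPM in un-diseased samples. None of the 8 passed by edgeR, and with the replicate block 2 rose, or 25% called against 23.9% of all tested genes. Matn1 was at 0 in 2 un-diseased samples, and the other markers had counts in all 6 samples. In bulk samples fewer cells of a type and less RNA per cell cannot be told apart, and the part of chondrocyte RNA in the Acan values was not tested.

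**Figure D2:**
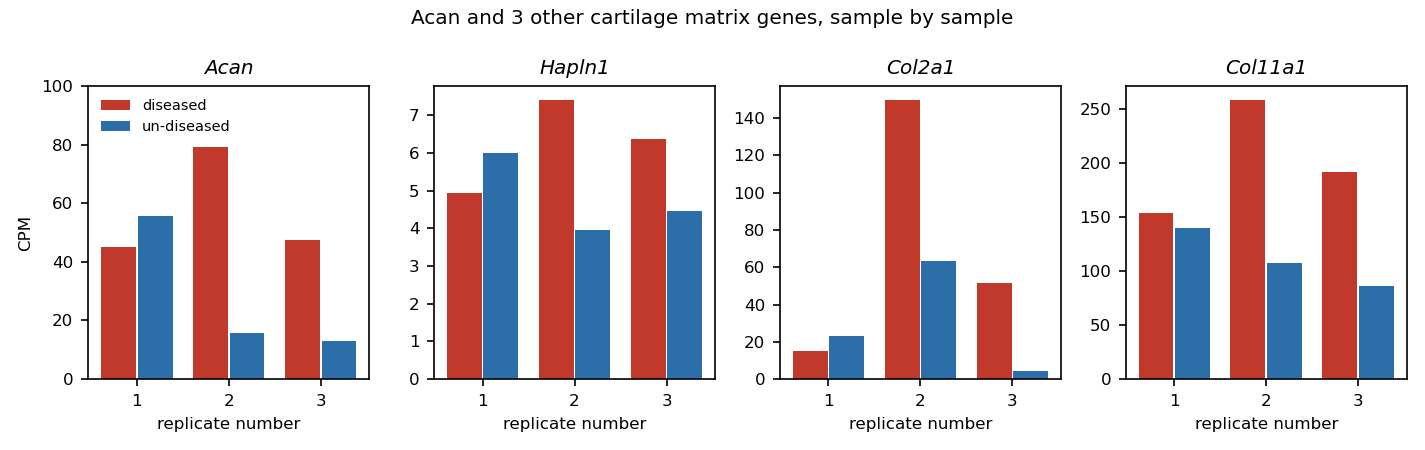
CPM (vertical axis, from 0, a different scale in each panel) of Acan, the link protein gene Hapln1 and the collagen genes Col2a1 and Col11a1 by replicate number, with diseased samples in red to the left of un-diseased samples in blue. The replicate 1 bars of Acan and Hapln1 are slightly lower in the diseased than in the un-diseased sample (45.0 against 55.6 CPM for Acan), while for replicates 2 and 3 the diseased bar is higher.

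Vcan (gene 13003, chromosome 13, 89655309 to 89743027, minus strand) was the most abundant of the 10 genes by CPM, above 99.2% of all genes in the table. It had 678, 1160.3 and 959 CPM in diseased replicates 1, 2 and 3, against 624, 798 and 715 CPM in un-diseased replicates 1, 2 and 3. Diseased replicates 2 and 3 were above every un-diseased sample, and diseased replicate 1 lay within the un-diseased range. The means were 932 ± 242 CPM in diseased and 712 ± 87.0 CPM in un-diseased samples (SD, n = 3 each), with a log2 fold change of 0.39 (SE 0.22, 95% interval -0.11 to 0.89; edgeR adjusted p = 0.273). Within each of the 3 pairs the diseased sample was higher, by 0.12, 0.54 and 0.42 on the log2 scale, which was the case for 30.5% of all tested genes.

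With the replicate block Vcan had a log2 fold change of 0.36 (SE 0.14) and an adjusted p of 0.0858, which did not pass. Versican is also made by monocytes and macrophages. All 18 of their markers had a positive fold change, and Lyz2, the most abundant, had 144.0 ± 53.0 CPM in diseased and 43.8 ± 37.1 CPM in un-diseased samples (edgeR adjusted p = 0.165, and 0.00574 with the replicate block). No marker of that list was at 0 in every sample. Their part in the Vcan values was not tested. The count per gene does not separate the splice forms of versican, of which the annotation lists 9 transcripts.

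The study's title names the transcription factor SOX5, which with SOX6 assists SOX9 in switching on cartilage genes, largely through distant enhancers. RefSeq promoter sequences of GRCm38.p6 were matched for 7 of the 10 genes; Hapln4, Matn2 and Snorc had no entry. The 250 bases before the start are printed for Acan and Vcan as the proteoglycans of the set, for Hapln3 because it alone of the 7 held letters of a SOX site, and for Chad because of its TATA sequence. Capitals mark any match, on either strand, to AACAAT or to the similar motif ACAAAG (core letters bound by SOX proteins), to the TATA box TATAAA, to the GC box GGGCGG or to CCAAT; neighbouring matches may share letters. The start is that of the RefSeq entry, which for Vcan and Hapln3 lies inside the span of the gene. The windows lie at chr7:79052976-79053225 (plus strand) for Acan, chr13:89742513-89742762 (minus strand) for Vcan, chr7:79131019-79131268 (minus strand) for Hapln3 and chr11:94564797-94565046 (plus strand) for Chad.
Acan: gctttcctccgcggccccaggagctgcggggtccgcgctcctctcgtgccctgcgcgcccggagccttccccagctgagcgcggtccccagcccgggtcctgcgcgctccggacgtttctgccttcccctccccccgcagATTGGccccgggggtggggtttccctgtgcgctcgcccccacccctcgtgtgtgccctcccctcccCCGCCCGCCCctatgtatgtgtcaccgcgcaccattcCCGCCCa
Vcan: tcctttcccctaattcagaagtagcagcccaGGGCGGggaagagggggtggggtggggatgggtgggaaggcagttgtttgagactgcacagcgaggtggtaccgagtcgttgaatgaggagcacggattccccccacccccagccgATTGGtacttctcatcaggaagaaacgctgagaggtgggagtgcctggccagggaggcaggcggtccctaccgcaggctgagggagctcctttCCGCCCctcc
Hapln3: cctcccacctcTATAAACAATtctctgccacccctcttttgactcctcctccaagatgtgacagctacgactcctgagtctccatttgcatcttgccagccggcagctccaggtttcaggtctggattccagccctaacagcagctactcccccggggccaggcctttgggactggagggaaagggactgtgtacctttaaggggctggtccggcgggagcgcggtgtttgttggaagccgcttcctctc
Chad: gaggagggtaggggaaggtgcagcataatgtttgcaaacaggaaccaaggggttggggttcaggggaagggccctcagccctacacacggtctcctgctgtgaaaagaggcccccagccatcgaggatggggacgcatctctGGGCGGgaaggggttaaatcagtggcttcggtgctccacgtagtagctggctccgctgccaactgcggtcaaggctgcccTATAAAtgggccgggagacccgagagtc

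AACAAT was found in 9.42% and ACAAAG in 16.5% of all 32851 promoter windows of this length. Neither was found in the Acan or Vcan window, and of the 7 genes only Hapln3 held AACAAT, starting 235 bases before its start site and sharing letters with a TATAAA. The Chad window held TATAAA, which 12.4% of all windows hold, starting 28 bases before its start. GGGCGG, in 32.7% of all windows, occurred 3 times in the Acan window and 2 times in the Vcan window, and CCAAT, in 33.8% of all, once in each. The Acan window was 74.4% G and C, against a median of 52.4% over all windows. A match is a run of letters only, and no binding was measured here.

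Among the factors themselves, Sox9 had 16.4 ± 5.61 CPM in diseased and 15.7 ± 2.70 CPM in un-diseased samples, Sox5 had 66.7 ± 10.6 CPM in diseased and 57.7 ± 11.5 CPM in un-diseased samples, and Sox6 had 4.27 ± 0.478 CPM in diseased and 6.05 ± 0.824 CPM in un-diseased samples (SD, n = 3 each). The log2 fold changes were 0.06 (SE 0.25), 0.21 (SE 0.17) and -0.50 (SE 0.19), and the adjusted p values by edgeR were 0.886, 0.445 and 0.143. None passed with the replicate block either.

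The link proteins were at lower levels per kb of exon than Acan and Vcan in every sample. Hapln1 (gene 12950, chromosome 13, 89540529 to 89611832, plus strand), the link protein of cartilage, had 4.94, 7.41 and 6.37 CPM in diseased replicates 1, 2 and 3, against 5.99, 3.94 and 4.46 CPM in un-diseased replicates 1, 2 and 3. As for Acan, un-diseased replicate 1 lay among the diseased samples. Its means were 6.24 ± 1.24 CPM in diseased and 4.80 ± 1.07 CPM in un-diseased samples (SD, n = 3 each), with a log2 fold change of 0.37 (SE 0.23, 95% interval -0.18 to 0.92; edgeR adjusted p = 0.326).

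Hapln4 (gene 330790, chromosome 8, 70083529 to 70090862, plus strand) encodes a link protein best known from the perineuronal nets of the brain. It had 3.23, 2.80 and 4.15 CPM in diseased replicates 1, 2 and 3, from 66, 45 and 77 counts, against 1.51, 0.376 and 2.60 CPM in un-diseased replicates 1, 2 and 3, from 29, 6 and 42 counts. It was the only gene of the 10 whose groups did not overlap with the diseased samples higher, as was the case for 16.5% of all tested genes. The means were 3.39 ± 0.692 CPM in diseased and 1.50 ± 1.11 CPM in un-diseased samples (SD, n = 3 each), with a log2 fold change of 1.18 (SE 0.54, 95% interval -0.09 to 2.45; edgeR adjusted p = 0.205), which did not pass.

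With the replicate block Hapln4 rose by 1.29 on the log2 scale (SE 0.37; edgeR adjusted p = 0.0379), in a fit that called 10.5% of all tested genes higher. The pairs differed by 1.04, 2.55 and 0.64 on the log2 scale. The blocked call was lost without any 1 of the 3 pairs, with adjusted p of 0.0868, 0.0728 and 0.078, and without un-diseased replicate 2, its lowest sample, the unblocked log2 fold change was 0.73. The 9 Schwann cell and neural markers summed to between 42.1 and 50.8 CPM in diseased and between 24.5 and 36.2 CPM in un-diseased samples, and 3 of the 5 tested had a positive fold change. The most abundant, the adhesion molecule Ncam1, rose to 24.9 ± 5.71 CPM in diseased samples, against 9.92 ± 2.98 CPM in un-diseased samples (log2 fold change 1.33, SE 0.25, edgeR adjusted p = 0.0388), a call lost on leaving out any sample but un-diseased replicate 1 (adjusted p 0.0531 to 0.152). Sox10 was at 0 in 5 of the 6 samples, as was the neuronal marker Rbfox3. Whether cells of this kind contributed to Hapln4 was not tested.

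Hapln3 (gene 67666, chromosome 7, 79117027 to 79133173, minus strand), a link protein of wider distribution, was scarce. It had 9, 8 and 7 counts in diseased replicates 1, 2 and 3, against 9, 8 and 10 counts in un-diseased replicates 1, 2 and 3, or 0.439 ± 0.0602 CPM in diseased and 0.530 ± 0.0794 CPM in un-diseased samples (SD, n = 3 each). It did not pass the filter on low counts and was not tested.

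Each link protein gene of the set lies beside a gene for a hyaluronan-binding proteoglycan. Acan and Hapln3 are 1927 bases apart on chromosome 7, and Vcan and Hapln1 are 43476 bases apart on chromosome 13. Hapln4 lies 2222 bases from the neurocan gene Ncan on chromosome 8. The members of each pair converge, with 0 protein-coding genes between them. Per kilobase of annotated exon, Acan was at 7.66 ± 2.56 CPM per kb in diseased and 3.77 ± 3.18 CPM per kb in un-diseased samples, while its neighbour Hapln3 was at 0.125 ± 0.0171 CPM per kb in diseased and 0.151 ± 0.0226 CPM per kb in un-diseased samples (SD, n = 3 each). Hapln1 was at 1.06 ± 0.210 CPM per kb in diseased and 0.813 ± 0.181 CPM per kb in un-diseased samples, while Vcan was at 64.5 ± 16.8 CPM per kb in diseased and 49.3 ± 6.02 CPM per kb in un-diseased samples.

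The balance between the proteoglycans differed from sample to sample. The ratio of Vcan to Acan, in CPM per kb, was 7.79, 7.57 and 10.4 in diseased replicates 1, 2 and 3, against 5.80, 26.2 and 28.1 in un-diseased replicates 1, 2 and 3. The diseased samples were close together, and the un-diseased samples fell on both sides of them. The ratio of Acan to Hapln1 was between 5.89 and 8.45 in diseased samples and between 2.33 and 7.32 in un-diseased samples.

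Among the matrilins, Matn2 (gene 17181, chromosome 15, 34306681 to 34436242, plus strand), the widely expressed member of the family, was above 97% of all genes in the table. It had 283, 298 and 269 CPM in diseased replicates 1, 2 and 3, against 212, 238 and 357 CPM in un-diseased replicates 1, 2 and 3. The diseased samples lay within the range of the un-diseased ones. The log2 fold change was 0.08 (SE 0.20, 95% interval -0.39 to 0.54; edgeR adjusted p = 0.82), and its sign changed without un-diseased replicate 1 (-0.07) or un-diseased replicate 2 (-0.01).

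Matn4 (gene 17183, chromosome 2, 164389393 to 164405160, minus strand), also expressed well beyond cartilage, had 33.3, 42.3 and 40.7 CPM in diseased replicates 1, 2 and 3, against 30.9, 37.8 and 45.0 CPM in un-diseased replicates 1, 2 and 3. The groups overlapped almost fully. Its log2 fold change of 0.03 (SE 0.16, 95% interval -0.34 to 0.41; edgeR adjusted p = 0.904) was the smallest of the 8. The ratio of Matn2 to Matn4 in CPM per kb was between 5.46 and 7.04 in diseased and between 5.20 and 6.56 in un-diseased samples.

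Matn3 (gene 17182, chromosome 12, 8947929 to 8972028, plus strand), a matrilin largely restricted to cartilage, was barely detected, with 11, 11 and 20 counts in diseased replicates 1, 2 and 3, against 21, 12 and 2 counts in un-diseased replicates 1, 2 and 3. Levels were 0.767 ± 0.280 CPM in diseased and 0.657 ± 0.492 CPM in un-diseased samples (SD, n = 3 each). Un-diseased replicate 3 was the lowest sample and un-diseased replicate 1 the highest, with the diseased samples between them. The log2 fold change of 0.20 (SE 0.64; edgeR adjusted p = 0.86) had a 95% interval of -1.29 to 1.68, which includes a difference of 2-fold in either direction.

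Chad (gene 12643, chromosome 11, 94565047 to 94569127, plus strand) had 14.7, 28.0 and 14.4 CPM in diseased replicates 1, 2 and 3, against 19.0, 25.4 and 8.80 CPM in un-diseased replicates 1, 2 and 3. In both groups replicate 2 was highest, as it was for Col2a1. The log2 fold change was 0.10 (SE 0.40, 95% interval -0.84 to 1.04; edgeR adjusted p = 0.888). Chad lies inside the span of Acsf2 on the opposite strand but shares 0 exon bases with it. Snorc (gene 73234, chromosome 1, 87470201 to 87475482, plus strand), a proteoglycan of chondrocytes, had 0, 2 and 1 counts in diseased and 0, 2 and 0 counts in un-diseased replicates 1, 2 and 3, at or under the limit that a count of 0 allows, and was not tested.

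**Figure D3:**
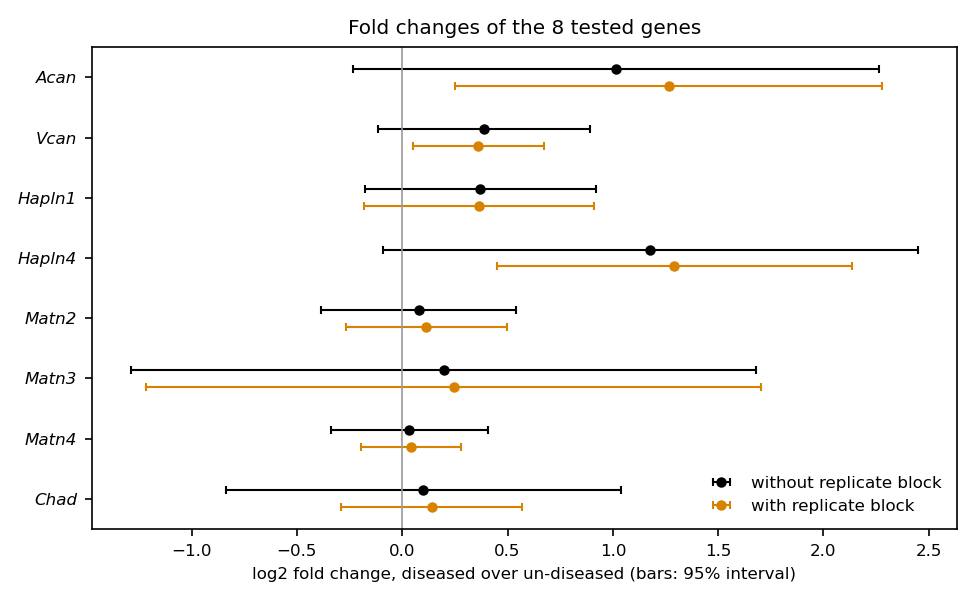
Log2 fold change, diseased over un-diseased, with 95% intervals (horizontal axis) for the 8 tested genes, without the replicate block (black) and with it (orange). The 8 black intervals include 0, and with the block those of Acan (0.25 to 2.28), Vcan (0.05 to 0.67) and Hapln4 (0.45 to 2.13) lie above it before adjustment for the 13264 genes tested.

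Ordered by mean CPM per kb of exon over all 6 samples, Vcan (56.9) and Matn2 (44.1) were highest and their ranges overlapped, from 43.1 to 80.2 and from 33.9 to 57.0; their order turned round when the longest transcript was used as the length (66.2 and 77.3). Chad (10.9), Matn4 (7.40) and Acan (5.71) came next, and did not differ beyond their ranges across samples. Hapln1 (0.935) and Hapln4 (0.623) followed, then Matn3 (0.236) and Hapln3 (0.138), and Snorc (0.0701) was last; from Hapln1 down, each gene's range overlapped that of the next. Vcan and Matn2 together made up most of the summed level of the 10 genes per kb, Vcan with 40.6% to 49.2% in diseased and 40.0% to 46.4% in un-diseased samples, and Matn2 with 28.7% to 39.3% in diseased and 31.9% to 46.0% in un-diseased samples. Acan took 4.71% to 6.39% in diseased samples and 1.42% to 7.18% in un-diseased samples.

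Genes that act with these proteins were described by lists, each read against 3.73% called over all tested genes. Of 15 tested genes for other cartilage matrix proteins 1 rose and 0 fell, with a median log2 fold change of 0.86. The gene that rose was Cilp, a matrix protein of the cartilage intermediate layer, with 1405 ± 63.4 CPM in diseased and 748 ± 60.0 CPM in un-diseased samples (SD, n = 3 each; log2 fold change 0.91, SE 0.14, edgeR adjusted p = 0.0254). With the replicate block 5 rose and 0 fell, or 33.3% called against 23.9% of all tested genes, namely Cilp, Col11a1, the brain proteoglycan Bcan, and Col9a2 and Col10a1, collagens of cartilage and of its hypertrophic zone, at 1.38 (SE 0.22) and 2.62 (SE 0.57) on the log2 scale. Col10a1 had 1.49 ± 0.428 CPM in diseased and 0.268 ± 0.365 CPM in un-diseased samples. In the un-diseased group its level was only 0.0521 CPM for replicate 1 and 0.062 CPM for replicate 3, against 0.689 CPM for replicate 2. The 2 low values were under the limit that a count of 0 leaves possible there, 0.156 and 0.186 CPM. The size of the Col10a1 fold change is thus imprecise in counting. Col2a1 did not pass in either comparison (edgeR adjusted p = 0.421, and 0.159 with the block), but it did with the block without pair 1 (2.13, adjusted p = 0.0197). Without pair 3 the blocked calls of Col10a1, Col11a1 and Bcan were lost (adjusted p = 0.0888, 0.155 and 0.0869), and that of Bcan was lost without either of the other pairs too (0.0631 and 0.141). This list holds all 10 of the chondrocyte markers.

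Of 13 tested proteases and inhibitors that act on hyaluronan-binding proteoglycans 0 rose and 1 fell, with a median of -0.27. Timp3, an inhibitor of aggrecanases that is held in the matrix, fell to 156 ± 47.4 CPM in diseased samples, against 343 ± 57.6 CPM in un-diseased samples (SD, n = 3 each; log2 fold change -1.14, SE 0.23, edgeR adjusted p = 0.0434). The aggrecanase genes Adamts4 and Adamts5 did not pass. Adamts4 had 117 ± 71.6 CPM in diseased and 213 ± 98.8 CPM in un-diseased samples, and Adamts5 had 365 ± 59.8 CPM in diseased and 514 ± 177 CPM in un-diseased samples. With the replicate block 2 of the list rose and 5 fell, or 53.8% called against 23.9% of all tested genes, and Adamts4 was among those that fell (-0.99, SE 0.17, edgeR adjusted p = 0.00618) while Adamts5 still did not pass (-0.44, SE 0.15, adjusted p = 0.0654). Without pair 3 the blocked call of Adamts4 was lost (adjusted p = 0.0622), and without un-diseased replicate 1 Adamts5 passed in the unblocked fit (-0.76, adjusted p = 0.0434).

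Of 14 tested genes of hyaluronan synthesis, breakdown and binding 0 rose and 0 fell by edgeR, with a median of -0.53. DESeq2 called 6 of the 14, where it called 11.4% of all tested genes. It also called 3 of the 15 other cartilage matrix genes and 2 of the 13 proteases and inhibitors. Of the lists below, it called 5 of 25 chondroitin sulfate genes, 7 of 15 partners and 2 of 14 factors and signals. Before adjustment 7 had p under 0.05 by edgeR, as did 27.8% of all tested genes. Tnfaip6, which transfers heavy chains onto hyaluronan and was the most abundant, had 1016 ± 568 CPM in diseased and 1920.5 ± 972 CPM in un-diseased samples (log2 fold change -0.92, SE 0.54, edgeR adjusted p = 0.298). With the replicate block it fell by 0.93 on the log2 scale (SE 0.16, edgeR adjusted p = 0.00729). With the block 3 rose and 7 fell, or 71.4% called against 23.9% of all. Those that rose were Cemip, Hyal2 and Hmmr, by 0.96, 0.72 and 0.75 on the log2 scale. Has1, the most abundant hyaluronan synthase gene, had 643 ± 234 CPM in diseased and 1157 ± 273 CPM in un-diseased samples (edgeR adjusted p = 0.138). With the block it fell (-0.89, SE 0.15, edgeR adjusted p = 0.0065). The hyaluronan synthase gene Has2 had 75.8 ± 39.6 CPM in diseased and 159 ± 51.4 CPM in un-diseased samples and was among those that fell with the block (-1.15, SE 0.18, edgeR adjusted p = 0.00541), though not without pair 3 (adjusted p = 0.0561).

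Of 25 tested genes that build chondroitin sulfate chains 3 rose and 0 fell, or 12% called, with a median of 0.09. Csgalnact1, which adds the first sugar that commits a chain to chondroitin, had 140.0 ± 11.8 CPM in diseased and 86.4 ± 9.38 CPM in un-diseased samples (log2 fold change 0.70, SE 0.12, edgeR adjusted p = 0.0301). Chsy1, a chain-extending synthase, had 52.9 ± 10.5 CPM in diseased and 29.9 ± 0.573 CPM in un-diseased samples (0.82, SE 0.15, adjusted p = 0.0347 by edgeR). Chst12, a sulfotransferase of the chain, had 43.6 ± 6.29 CPM in diseased and 26.3 ± 3.23 CPM in un-diseased samples (0.73, SE 0.14, adjusted p = 0.0402 by edgeR). With the block 6 rose and 3 fell, or 36% called against 23.9% of all.

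Of 15 partners in the matrix and at the cell surface 0 rose and 1 fell, Itga2, a chain of a collagen-binding integrin, with 6.67 ± 0.702 CPM in diseased and 17.1 ± 4.48 CPM in un-diseased samples (log2 fold change -1.35, SE 0.22, edgeR adjusted p = 0.0272); with the block 5 rose and 1 fell, or 40% called against 23.9% of all. Of 14 cartilage transcription factors and signals 1 rose and 0 fell, Trps1, a transcription factor of growth cartilage, with 152 ± 13.2 CPM in diseased and 105 ± 8.25 CPM in un-diseased samples (0.54, SE 0.11, edgeR adjusted p = 0.0454); with the block 2 rose and 2 fell, or 28.6% called against 23.9% of all. Each of these 7 unblocked calls, from Cilp to Trps1, was lost when diseased replicate 3, un-diseased replicate 2 or un-diseased replicate 3 was left out. Leaving out diseased replicate 1 lost 6 of the 7 (all but Chsy1), leaving out diseased replicate 2 lost 6 (all but Timp3), and leaving out un-diseased replicate 1 lost 1 (Trps1). Without diseased replicate 3 their adjusted p was between 0.132 and 0.18. That fit called 2 genes higher and 3 lower over all tested genes. The fit without un-diseased replicate 2 called 3 and 7, and that without un-diseased replicate 3 called 14 and 23. With the block, 0 of the 7 calls were lost without pair 1 or pair 2, and 1 (Itga2) without pair 3.

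**Figure D4:**
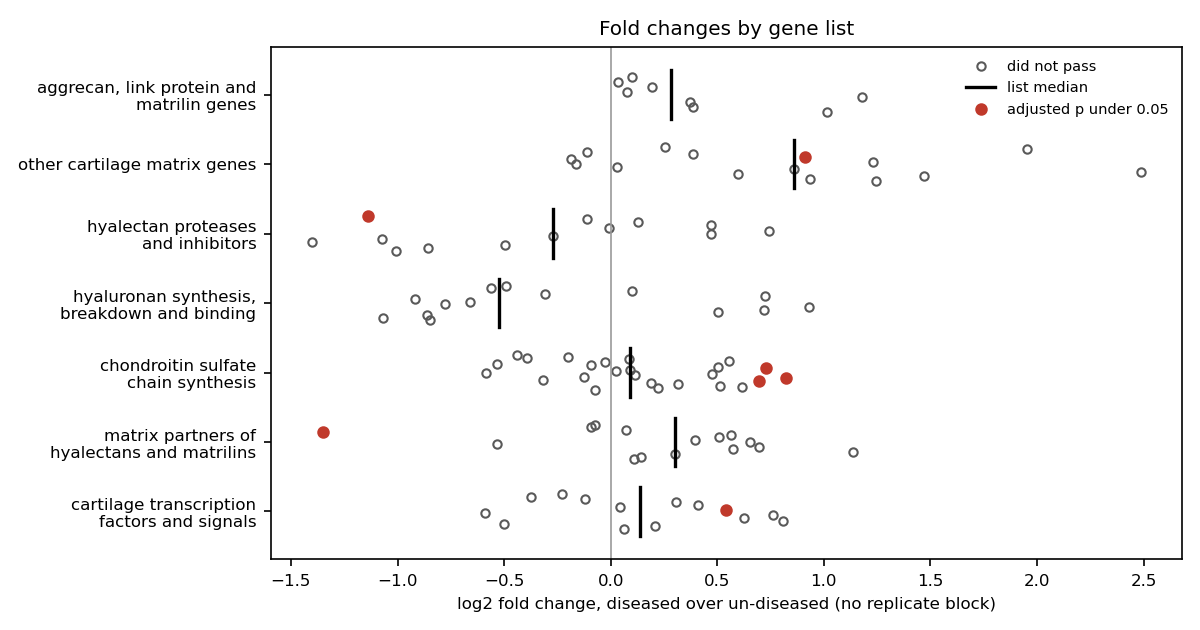
Log2 fold changes without the replicate block, diseased over un-diseased (horizontal axis), of the tested genes of the 10 and of 6 lists of related genes; filled red points passed at an adjusted p under 0.05, open points did not, and black bars are list medians. The 8 tested genes for aggrecan, versican, link proteins, matrilins and chondroadherin lie between 0.03 and 1.18 with no filled point.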

How the data were processed

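Bulk RNA of 6 samples was measured, 3 diseased and 3 un-diseased, grouped by the treatment label. The authors deposited a table of estimated counts per gene, with a log2 ratio (un-diseased over diseased), a p-value and a q-value for each. Per the labels' protocols, RNA was extracted with TRIzol and sequenced in pairs on a BGISEQ-500. HISAT2 2.0.4, RSEM 1.3.1, DESeq2 1.4.5 and GRCm38 are named in the submitters' processing notes, without roles; whether the library kept strand is not given in the sources used here.

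Values with decimals made up 9.6% of the deposited estimated counts, and every value was rounded. Genes were filtered with filterByExpr (least count 10), scaled by TMM and tested by edgeR 4.0.16 (quasi-likelihood, R 4.3.3), with Benjamini-Hochberg adjusted p over 13264 genes and a threshold of 0.05. The SE is the log2 fold change over the root of its F statistic, and the 95% intervals come from it. Levels per kb use the merged exons of GENCODE M21 (GRCm38), and gene positions are from RefSeq for GRCm38.p6, 1-based.

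The correlation of same-numbered samples' deviations from their group means was 0.484, 0.58 and 0.274. For differently numbered samples it was between -0.532 and 0.139. The replicate numbers of the labels were therefore taken to pair the samples, which the labels themselves do not state. The block thus rests on the same data that it was used to test. Deviations cancel within a group, so these correlations are not independent of each other. The genes and lists were chosen with earlier results of these data known. Named beside the 10 genes were up to 4 called genes of each list, or its most abundant gene where none was called. The most abundant marker of a cell type was named too. Named after their values were seen were Adamts4, Adamts5, Has1, Has2, Cemip, Hyal2, Hmmr, Sox5, Sox6, Sox9 and Bcan. So were the collagen genes Col2a1, Col9a1, Col9a2, Col9a3, Col10a1, Col11a1 and Col11a2, and single markers or partners at 0 or beside a gene. Alternatives were RLE and upper-quartile scaling, 2 other filters, DESeq2 1.42.0, limma-voom (limma 3.58.1), the replicate block, a threshold of 0.01 and leaving out each sample or pair. The steps were tested on simulated data without a replicate effect, so that test could not judge the blocked against the unblocked fit. Matn2 and Matn4 share 70 and 149 exon bases with genes on the opposite strand.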

Additional observations from a re-analysis of the deposited data

How the results depend on the processing

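Over all genes edgeR called 213 higher and 282 lower (diseased over un-diseased), against 635 and 882 by DESeq2, 1397 and 1770 with the replicate block, 417 higher with upper-quartile factors (59.1% of calls upward against 43%), and 2 and 2 at a threshold of 0.01. Leaving out a sample gave 2 to 354 higher and 3 to 721 lower. With the block and without pair 1, 2 or 3, 1013, 809 and 426 were higher and 1556, 1274 and 583 lower. Of the 8 tested genes 0 were higher or lower, and 0 under the other scalings, filters, DESeq2 and limma-voom. With the replicate block 1 was higher (Hapln4). Acan was higher without un-diseased replicate 1, or with the block and without pair 1 (2.08, adjusted p = 0.0012 by edgeR). Both of these fits drop its highest un-diseased sample. Leaving out a sample thus gave 0 to 1. The block changed no other call among the 8. Signs turned only on leaving out samples, in 4 of the 8 genes, none of which passed. Leaving out a sample gave -0.0725 to 0.336 for Matn2, -0.28 to 0.796 for Matn3, -0.10 to 0.176 for Matn4 and -0.28 to 0.437 for Chad. With the block, Matn2 was at -0.0537 without pair 1, Matn3 at -0.61 without pair 3, Matn4 at -0.00562 and -0.0193 without pair 1 or pair 2, and Chad at -0.11 without pair 3. Sox9 was at -0.224 to 0.275 on leaving out a sample and at -0.28 with the block without pair 2. With no filter beyond 1 count, Hapln3 was at -0.27 (SE 0.42) and Snorc at 0.43 (SE 1.45). The causes were not tested. Hapln3, Matn3 and Snorc had at most 21 counts in a sample, so their values are the least precise in counting.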

Other observations

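The proteoglycan, link protein and matrilin families have 4 other members in the table, all at very low levels. Brevican (Bcan), a brain proteoglycan of the aggrecan family, had 0.538, 0.996 and 0.594 CPM in diseased replicates 1, 2 and 3, against 0.156, 0.188 and 0.186 CPM in un-diseased replicates 1, 2 and 3. The un-diseased values correspond to 3 counts in each sample, the most that a count of 0 leaves possible. The groups did not overlap, as was the case in this direction for 16.5% of all tested genes. The log2 fold change was 1.95 (SE 0.46, edgeR adjusted p = 0.0593), which did not pass. With the replicate block it was 1.94 (SE 0.50, edgeR adjusted p = 0.0274), which did. That call was lost without any 1 of the 3 pairs (adjusted p 0.0631 to 0.141), and with upper-quartile factors Bcan passed without the block (adjusted p = 0.0446). Hapln2, which lies 18382 bases from Bcan, and Matn1, the founding matrilin of cartilage, had at most 0.125 CPM in any sample. Neurocan (Ncan), 2222 bases from Hapln4, was at 0 in 5 of the 6 samples.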
